A study of Mus musculus with 8 samples.

Results

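The 36 genes described here encode the proteins of the basement membrane, the enzyme and matricellular proteins that associate with it, and the integrin and dystroglycan receptors through which cells hold it. They were picked by name and function, not by a threshold on their counts, from the 46078 mouse gene identifiers that were counted in every library. Earlier results of these data were known when they were picked. Polyadenylated RNA was sequenced from 4 groups of 2 libraries each, all of C57BL/6 background and XY. The tcESC group was a male embryonic stem cell (ESC) line of genotype XY;tesco-cfp, whose CFP reporter is driven by the testis enhancer of Sox9, and tc;Sf1ESC was 1 drug-selected clone of that line carrying an Sf1 (Nr5a1) transgene from a plasmid (XY;tesco-cfp;Sf1). The Sertoli cell-like cells (SCLCs) were sorted as CFP-positive cells after 12 days of testicular somatic differentiation of the tc;Sf1ESC clone in 2 steps, the first with TTNPB and CHIR99021 and the other with BMP7, FGF9 and CHIR99021. The tod-PGCLCs, primordial germ cell-like cells, were sorted on day 6 from organoids in which epiblast-like cells of a different ESC line (XY;Prdm1-gfp) had been mixed with testicular somatic-like cells. The study shows this sort for organoids whose somatic-like cells came from the tc;Sf1ESC clone, and its organoid medium held CHIR99021. ESCs were kept without feeder cells or serum in 2iLIF medium. Since the Prdm1-gfp parent line was not analysed here, line and cell state cannot be told apart in any comparison with tod-PGCLCs, and clone and transgene cannot be told apart between both ESC groups.

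A basement membrane is a thin sheet of matrix under epithelia and around many other cells. Laminins, trimers of 1 alpha, 1 beta and 1 gamma chain, polymerise at the cell surface, and networks of collagen IV are tied to them by nidogens and the heparan sulphate proteoglycans perlecan and agrin. Integrin pairs and dystroglycan bind the laminin from the cell side. In the testis such a sheet lies between the Sertoli cells and the peritubular cells, and in the early embryo the parietal endoderm lays down a thick one, Reichert's membrane.

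Collagen IV genes lie in head-to-head pairs, and the starts of the pairs are shown because the members of a pair sat at such different levels from those of another. In GRCm38, Col4a2 (plus strand) begins at position 11312805 of chromosome 8 and Col4a1 (minus strand) at 11312826, so that the annotated first exons overlap by 22 bases. Col4a3 and Col4a4 on chromosome 1 are separated by 71 bases, and Col4a5 and Col4a6 on the X chromosome by 1308 bases. The sequence of the first overlap and of the Col4a3/Col4a4 gap, and the bases just before the start of the laminin beta chain gene Lamb1, are given 5′ to 3′ on the plus strand from RefSeq (GRCm38.p6), with GC boxes (GGGCGG, either strand) in capitals.
Col4a1/Col4a2 overlap, chr8:11312805-11312826: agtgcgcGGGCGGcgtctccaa
Col4a3/Col4a4 gap, chr1:82586850-82586920: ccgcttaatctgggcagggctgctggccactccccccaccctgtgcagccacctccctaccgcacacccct
Lamb1 upstream, chr12:31265043-31265233: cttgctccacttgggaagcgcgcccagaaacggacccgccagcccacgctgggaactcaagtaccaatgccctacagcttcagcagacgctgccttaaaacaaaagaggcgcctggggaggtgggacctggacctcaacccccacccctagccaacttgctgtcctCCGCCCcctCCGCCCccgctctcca
The 22 bases shared by Col4a1 and Col4a2 held 1 GC box, the 71 bases between Col4a3 and Col4a4 held 0, and the 191 bases before Lamb1 held 2. RefSeq promoter windows of 300 bases (250 before the start and 50 after) were available for 26 of the 36 genes, in 33 windows. A GC box was found in 69.7% of these windows against 35.7% of all 32851 promoter windows, and a CCAAT box (CCAAT, either strand) in 30.3% against 37.4%. TATAAA and AGATAA, each on either strand, were found in 0 of the 33 windows, against 13.6% and 11.2% of all windows. These matches describe letters only.

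Each library held between 25411033 and 30680191 counts on genes, so that 3 counts amounted to 0.0978 to 0.118 CPM (counts scaled to the library total). Of the 36 genes, 31 had a mean above 10 counts over the 8 libraries and entered a joint fit of 16707 genes (edgeR, quasi-likelihood F-test with Benjamini-Hochberg adjustment). Each adjusted p below comes from that fit, and a gene was called changed when the adjusted p was under 0.05 and the change over 2-fold. The study calls the libraries of a group biological duplicates without naming separate derivations. The p-values rest on the spread between duplicates, estimated jointly over the 4 groups and not from the compared libraries alone. That spread may in part be technical. In bulk RNA, fewer cells of a type and less RNA per cell cannot be told apart.

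The Sf1 transgene was checked first. Nr5a1 had 1 and 0 counts in tcESC, 52 and 30 in tc;Sf1ESC, 341 and 535 in SCLCs and 6 and 5 in tod-PGCLCs. Both tc;Sf1ESC libraries thus lay above both tcESC libraries, as labelled, but these counts do not separate transgene from endogenous reads. The SCLC label was set against 13 Sertoli markers. Gata4 was at 415 and 431 CPM in SCLCs against at most 6.65 CPM in any ESC library, but Fshr had 0 counts, Dhh was at 0.189 and 0.0344 CPM and Amh at 0.377 and 0.756 CPM, neither above the highest ESC library (0.867 CPM for each), and Sox9 reached 7.77 and 4.47 CPM. The list summed to 538 and 556 CPM in SCLCs, most of it Gata4, and of its 12 tested genes 9 were called higher and 1 lower than in tc;Sf1ESC, and 7 higher and 0 lower than in tcESC. Markers of extraembryonic endoderm were high in the same libraries. The 8 parietal endoderm markers summed to between 1812 and 2030.5 CPM in SCLCs against 35.9 to 43.9 CPM in the ESCs, and all 8 were called higher against each ESC group, among them Pdgfra (735 and 872 CPM) and Pth1r (506 and 633 CPM). The 9 visceral endoderm markers summed to 1644 and 3125 CPM against at most 13.3 CPM in the ESCs, with Cubn at 1056 and 2107 CPM, and all 9 were called higher. Every SCLC result below goes with these markers, and their part in it was not tested. Cldn11 of the Sertoli list and Ttr and Apoa1 of the visceral endoderm list had at most 1 count in any ESC library. They passed the filter on mean counts only through the SCLC libraries, so they could not have been called lower there. In tod-PGCLCs, too, markers of other cells were above tcESC. The visceral endoderm list summed to between 25.7 and 27.8 CPM against 6.68 to 8.15 CPM in tcESC (6 of 9 genes called higher and 0 lower), and the 5 peritubular and smooth muscle markers to between 45.9 and 50.2 CPM against at most 2.97 CPM (5 higher and 0 lower). The Sertoli list summed to between 171 and 188 CPM against at most 44.9 CPM (6 of 12 tested genes higher and 1 lower), with Dmrt1, which germ cells also express, at 99.8 and 122 CPM and Fshr at 0 counts. The parietal endoderm list, at 28.8 to 47.7 CPM, overlapped with tcESC (4 of 8 higher and 3 lower). The 8 podocyte and renal markers summed to between 91.2 and 94.2 CPM against 11.1 to 12.0 CPM in tcESC (4 of 6 tested genes higher and 1 lower), with Nphs1, which encodes nephrin, at 85.3 and 68.7 CPM. The part of these markers in the tod-PGCLC results was not tested.

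**Figure D1:**
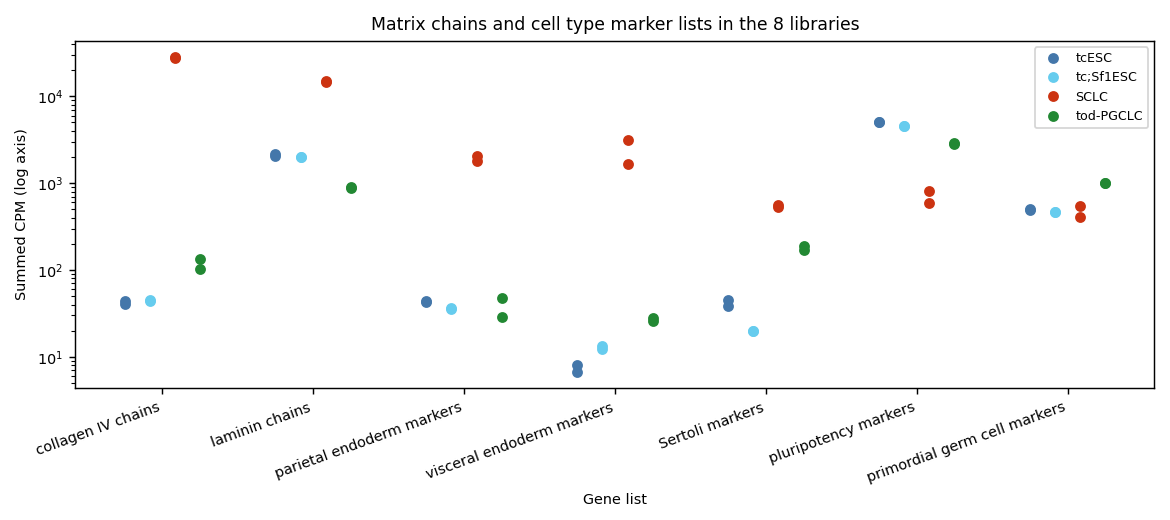
Summed CPM (log axis) of the collagen IV chains, the laminin chains and 5 lists of cell type markers, with 1 point for each of the 8 libraries and 4 colours for the groups. Collagen IV, laminin, parietal endoderm, visceral endoderm and Sertoli sums are highest in both SCLC libraries, where the pluripotency sum (590 to 823 CPM) is below that of the ESCs (4571 CPM or more).

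The 36 genes together made up 5.79 and 5.67% of all counts in SCLCs. They made up 0.583 and 0.555% in tcESC, 0.515 and 0.518% in tc;Sf1ESC, and 0.464 and 0.455% in tod-PGCLCs. The SCLC libraries stood apart, and the other 6 libraries lay within a narrow range. A few genes held most of this share. In both SCLC libraries Col4a1 had the most counts of any gene, Col4a2 ranked 3, Lama1 6, Lamb1 7 and Lamc1 9, and Sparc ranked 5 in one and 4 in the other. In the ESC libraries Col4a1 ranked between 6271 and 6639.

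**Figure D2:**
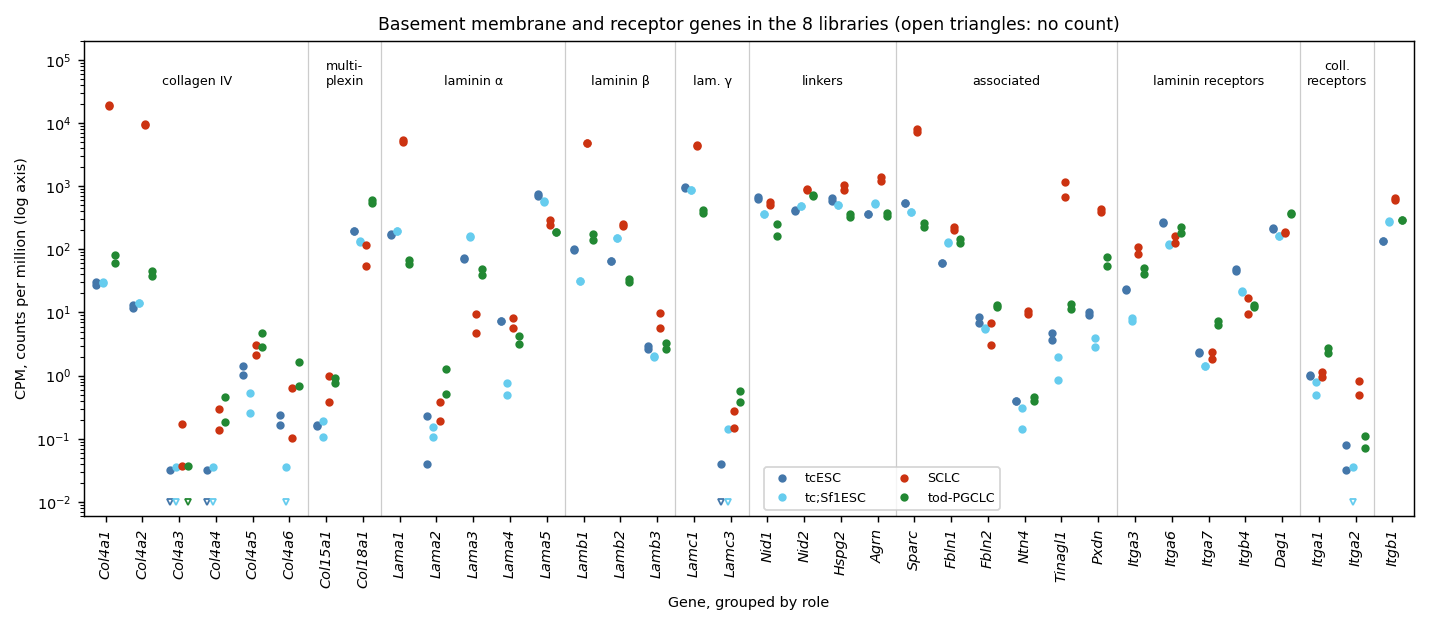
CPM (log axis) of the 36 genes in the 8 libraries, grouped by role, with 1 point per library and open triangles for libraries with no count. In SCLCs (red) Col4a1, Col4a2, Lama1, Lamb1, Lamc1, Sparc, Tinagl1 and Pxdn lie above every other library, and Lama3 lies below every other library.

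Against the clone from which they were derived, SCLCs had 17 of the 31 tested genes called higher and 2 called lower. Of all genes tested, 42.2% were called in this comparison, 24.2% higher and 18% lower. The median log2 fold change of the 31 genes was 1.36, against 0.02 over all genes. The filter on mean counts tilts such tallies, here and over all genes. Ntn4, with 4 to 12 counts outside SCLCs, passed it only through the SCLC libraries and could not have been called lower. Against tcESC the counts were 18 higher and 4 lower (42.6% of all genes called, 24.4% higher and 18.2% lower), with a median of 1.53 against 0.05. Both comparisons use the same SCLC libraries, so they are not independent, and the tcESC libraries also enter the 2 that follow. Between the ESC groups, tc;Sf1ESC had 4 of the 31 genes higher and 8 lower than tcESC (12% of all genes called, 6.13% higher and 5.85% lower), with a median of −0.45 against 0. Leaving out the second tcESC library brought the 4 to 2. In tod-PGCLCs 12 were higher and 8 lower than in tcESC (29.4% of all genes called, 18.1% higher and 11.2% lower), with a median of 0.66 against 0.03.

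**Figure D3:**
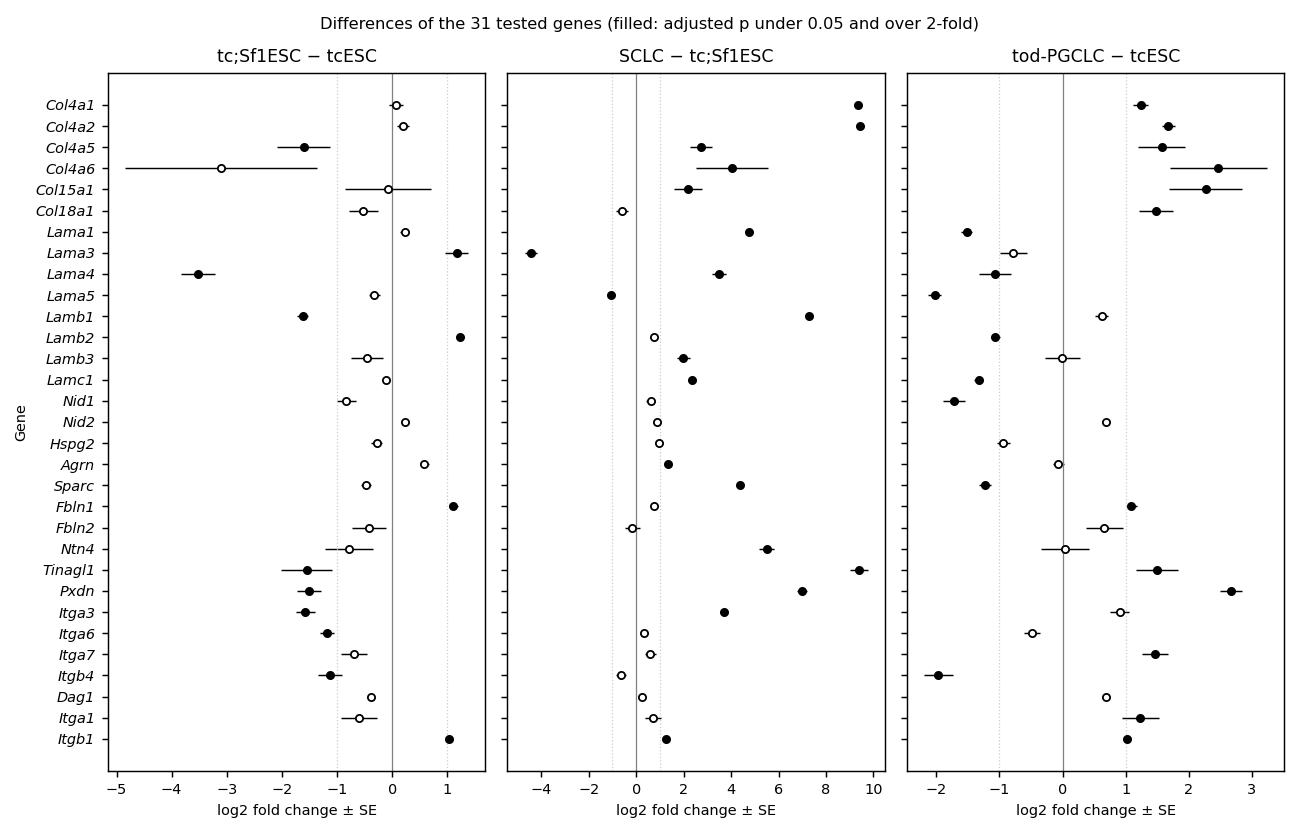
Log2 fold change ± SE of the 31 tested genes in 3 comparisons, with filled points for genes called and open points for genes not called. Dotted lines mark 2-fold, the horizontal scales differ between panels, and the changes over 9 on the log2 scale (Col4a1, Col4a2 and Tinagl1) all lie in the panel of SCLC against tc;Sf1ESC.

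In SCLCs against either ESC group, collagen IV was the family with the largest median log2 fold change (6.70 against tc;Sf1ESC and 5.28 against tcESC). Its 6 genes made up 2.88 and 2.80% of all counts in SCLCs, against at most 0.00447% in the ESCs and 0.0103 and 0.0133% in tod-PGCLCs. Col4a1, which encodes the alpha1 chain of the common collagen IV network, was at 30.1 and 27.1 CPM in tcESC, 29.1 and 30.3 CPM in tc;Sf1ESC, 19179.8 and 18782 CPM in SCLCs, and 61.4 and 80.3 CPM in tod-PGCLCs. Both ESC groups overlapped, tod-PGCLCs lay above them, and SCLCs stood far above all of them. The log2 fold change of Col4a1 was 9.36 ± 0.17 (SE) against tc;Sf1ESC (adjusted p = 4.4e-09) and 9.44 ± 0.17 against tcESC (adjusted p = 3.5e-09).

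Col4a2, its partner in the same trimer, was at 13.0 and 11.8 CPM in tcESC, 14.0 and 14.1 CPM in tc;Sf1ESC, 9586 and 9233 CPM in SCLCs, and 37.9 and 45.4 CPM in tod-PGCLCs. The order of the groups was that of Col4a1. Its log2 fold change in SCLCs was 9.43 ± 0.13 against tc;Sf1ESC (adjusted p = 2.54e-09). Since the collagen IV trimer of this network holds 2 alpha1 chains and 1 alpha2 chain, the ratio of the transcripts per kilobase of exon is of interest. Col4a1 over Col4a2 was 2.05 and 2.04 in tcESC, 1.84 and 1.91 in tc;Sf1ESC, 1.77 and 1.80 in SCLCs, and 1.44 and 1.57 in tod-PGCLCs, so it stayed between 1.44 and 2.05 while the mean level of Col4a1 differed 664-fold between tcESC and SCLCs. With the length of the longest transcript in place of all exons, the ratios ran from 1.58 to 2.26. In tod-PGCLCs Col4a1 was 1.24 ± 0.12 (adjusted p = 4.63e-05) and Col4a2 1.68 ± 0.10 (adjusted p = 3.18e-06) higher than in tcESC on the log2 scale.

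The other collagen IV chains stayed low everywhere. Col4a3 and Col4a4, chains of the network of mature kidney and testis, had between 0 and 5 and between 0 and 12 counts in any library and were not tested. Col4a5 was at 1.02 and 1.40 CPM in tcESC, 0.540 and 0.253 CPM in tc;Sf1ESC, 3.06 and 2.10 CPM in SCLCs, and 2.87 and 4.78 CPM in tod-PGCLCs. It was called higher in SCLCs than in tc;Sf1ESC (log2 2.74 ± 0.45, adjusted p = 0.000504), but its call against tcESC (1.13 ± 0.38, adjusted p = 0.0238) was lost when the first SCLC library or either tcESC library was left out, with log2 values of 0.85 to 1.35. Col4a5 was also called lower in tc;Sf1ESC than in tcESC (−1.61 ± 0.48, adjusted p = 0.0322), and the call was lost without the second tc;Sf1ESC library (−1.18) or without either tcESC library (−1.83 and −1.38). Col4a6 had 0 and 1 counts in tc;Sf1ESC and 17 and 3 in SCLCs, and its call there (log2 4.04 ± 1.52, adjusted p = 0.0291) was lost without the first SCLC library (2.28, adjusted p = 0.24) or without the first or second tc;Sf1ESC library (3.21 and 6.39, adjusted p = 0.12 and 0.063), so its size was poorly determined. Each of these 4 minor chains stayed at or under 4.78 CPM in every library.

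The multiplexins, collagens XV and XVIII, carry heparan or chondroitin sulphate and release anti-angiogenic fragments. Col18a1 was at 196 and 192 CPM in tcESC, 132 and 135 CPM in tc;Sf1ESC, 117 and 54.6 CPM in SCLCs, and 544 and 600.5 CPM in tod-PGCLCs. It was the only gene of the 36 with over 500 CPM in tod-PGCLCs besides Nid2, and all other groups lay well below. Col18a1 was higher in tod-PGCLCs than in tcESC by 1.49 ± 0.27 on the log2 scale (adjusted p = 0.0013). The SCLC libraries differed about as much from each other as from the ESCs: the fall against tcESC (−1.12 ± 0.27, adjusted p = 0.00481) was −0.66 and under 2-fold without the second SCLC library. Col15a1 stayed at or under 0.981 CPM in every library, and its call in SCLCs against tc;Sf1ESC (2.18 ± 0.60, adjusted p = 0.00925) was lost without the first SCLC library (1.37, adjusted p = 0.07) or the second tc;Sf1ESC library (1.82, adjusted p = 0.07).

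The laminin alpha chain, which sets the receptor binding of the trimer, differed between SCLCs and the other groups. Lama1 was at 172 and 169 CPM in tcESC, 198 and 197 CPM in tc;Sf1ESC, 5287 and 5016 CPM in SCLCs, and 67.1 and 57.7 CPM in tod-PGCLCs. SCLCs lay far above the ESCs and tod-PGCLCs below them. The log2 fold change of Lama1 was 4.75 ± 0.09 against tc;Sf1ESC (adjusted p = 6.24e-09), 4.98 ± 0.09 against tcESC (adjusted p = 4.14e-09), and −1.52 ± 0.08 in tod-PGCLCs against tcESC (adjusted p = 1.77e-06).

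Lama5, the alpha chain of the laminins widely used as substrates for ESCs, went the other way in SCLCs but fell with Lama1 in tod-PGCLCs. It was at 758 and 698 CPM in tcESC, 569 and 584 CPM in tc;Sf1ESC, 240.0 and 296 CPM in SCLCs, and 185 and 189.8 CPM in tod-PGCLCs. The 4 groups did not overlap, with tcESC highest and tod-PGCLCs lowest. Lama5 was lower by −1.38 ± 0.10 in SCLCs (adjusted p = 2.93e-06) and by −2.03 ± 0.10 in tod-PGCLCs (adjusted p = 1.19e-06) against tcESC on the log2 scale. Against tc;Sf1ESC its fall of −1.06 ± 0.10 (adjusted p = 1.49e-05) became −0.90, under 2-fold, without the first SCLC library.

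Lama3, the alpha chain of laminin-332 of hemidesmosomes, was at 73.9 and 70.1 CPM in tcESC, 159 and 161 CPM in tc;Sf1ESC, 9.58 and 4.74 CPM in SCLCs, and 49.2 and 39.0 CPM in tod-PGCLCs. It was the most strongly reduced of the 31 genes in SCLCs, by −4.45 ± 0.25 against tc;Sf1ESC (adjusted p = 6.85e-07) and −3.28 ± 0.25 against tcESC (adjusted p = 3.76e-06). It was higher in the clone than in tcESC by 1.17 ± 0.21 (adjusted p = 0.00324), a call that was lost without the second tcESC library (1.10, adjusted p = 0.051). Lama4, of mesenchymal and vascular basement membranes, was at 7.28 and 7.46 CPM in tcESC, 0.501 and 0.759 CPM in tc;Sf1ESC, 8.26 and 5.67 CPM in SCLCs, and 3.12 and 4.25 CPM in tod-PGCLCs. It fell in the clone (−3.52 ± 0.31, adjusted p = 0.000105), and SCLCs overlapped with tcESC again, so that its rise over tc;Sf1ESC (3.49 ± 0.31, adjusted p = 1.04e-05) had no counterpart against tcESC (−0.02 ± 0.24, adjusted p = 0.934). Lama2 had 1 to 34 counts per library and was not tested.

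Among the beta chains, Lamb1 was at 101 and 96.0 CPM in tcESC, 31.9 and 31.1 CPM in tc;Sf1ESC, 4796 and 4758 CPM in SCLCs, and 140.5 and 178 CPM in tod-PGCLCs. The clone was lowest and SCLCs highest, with no overlap between any groups. The log2 fold change of Lamb1 was 7.29 ± 0.13 in SCLCs against tc;Sf1ESC (adjusted p = 4.64e-09), 5.66 ± 0.12 against tcESC (adjusted p = 6.99e-09), and −1.63 ± 0.11 in tc;Sf1ESC against tcESC (adjusted p = 2.83e-05). The rise in tod-PGCLCs over tcESC (0.62 ± 0.10, adjusted p = 0.0008) was under 2-fold.

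Lamb2, the beta chain of synaptic and kidney laminins, was at 64.3 and 64.6 CPM in tcESC, 152 and 148 CPM in tc;Sf1ESC, 238 and 247 CPM in SCLCs, and 30.8 and 34.0 CPM in tod-PGCLCs. In the clone Lamb1 fell while Lamb2 rose by 1.24 ± 0.07 (adjusted p = 1.21e-05). Lamb2 in SCLCs was higher than in tcESC by 1.97 ± 0.07 (adjusted p = 4.97e-08), most of which was present in the clone, over which it gained 0.74 ± 0.07 (adjusted p = 1.1e-05, under 2-fold). Lamb3 was at or under 9.70 CPM in every library, and was called higher in SCLCs against tc;Sf1ESC (1.98 ± 0.28, adjusted p = 0.00018).

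Lamc1, the gamma chain shared by most laminins, was already abundant in the ESCs. It was at 979 and 922 CPM in tcESC, 866 and 883 CPM in tc;Sf1ESC, 4431 and 4273 CPM in SCLCs, and 416 and 381 CPM in tod-PGCLCs. Its rise in SCLCs was smaller than those of Lama1 and Lamb1, at 2.36 ± 0.07 against tc;Sf1ESC (adjusted p = 3.42e-08), and it fell by 1.33 on the log2 scale in tod-PGCLCs against tcESC (SE 0.07, adjusted p = 1.74e-06). Lamc3 had 0 to 16 counts per library and was not tested.

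Scaled by exon length, the chains of laminin-111, the trimer of Lama1, Lamb1 and Lamc1, reached nearly equal levels in SCLCs. Lama1 was at 532 ± 19.8, Lamb1 at 482 ± 2.73 and Lamc1 at 526 ± 13.5 CPM per kb (mean ± SD, n = 2). The ratio of Lama1 to Lamc1 was 1.02 and 1.0, whereas it was 0.150 and 0.156 in tcESC, 0.195 and 0.191 in tc;Sf1ESC, and 0.138 and 0.129 in tod-PGCLCs. The ratio of Lamb1 to Lamc1 was 0.903 and 0.929 in SCLCs against 0.0858 and 0.0869 in tcESC. Equality with Lamb1 depended on the length used, since with the longest transcript the latter ratio in SCLCs was 1.43 and 1.47, whereas Lama1 over Lamc1 stayed at 0.955 and 0.939. In the ESCs and tod-PGCLCs Lamc1 thus exceeded Lama1 and Lamb1 per length under either choice.

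Within the alpha chains, Lama5 made up 72.5 and 71.4% of the CPM per kb in tcESC, 58.6 and 59.2% in tc;Sf1ESC, 58.0 and 62.5% in tod-PGCLCs, and 3.71 and 4.77% in SCLCs. Lama1 made up 96.0 and 95.1% in SCLCs and at most 24.7% in any other library. Within the beta chains, Lamb1 made up 48.1 and 46.7% in tcESC, 11.3 and 11.3% in tc;Sf1ESC, 92.3 and 92.0% in SCLCs, and 72.2 and 74.7% in tod-PGCLCs, and Lamb2 made up nearly all of the remainder. Whether Lamb1 or Lamb2 led in tcESC depended on the length used, with a ratio of Lamb1 to Lamb2 of 0.961 and 0.911 by all exons and of 1.53 and 1.45 by the longest transcript. In the other 3 groups the order held under both.

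**Figure D4:**
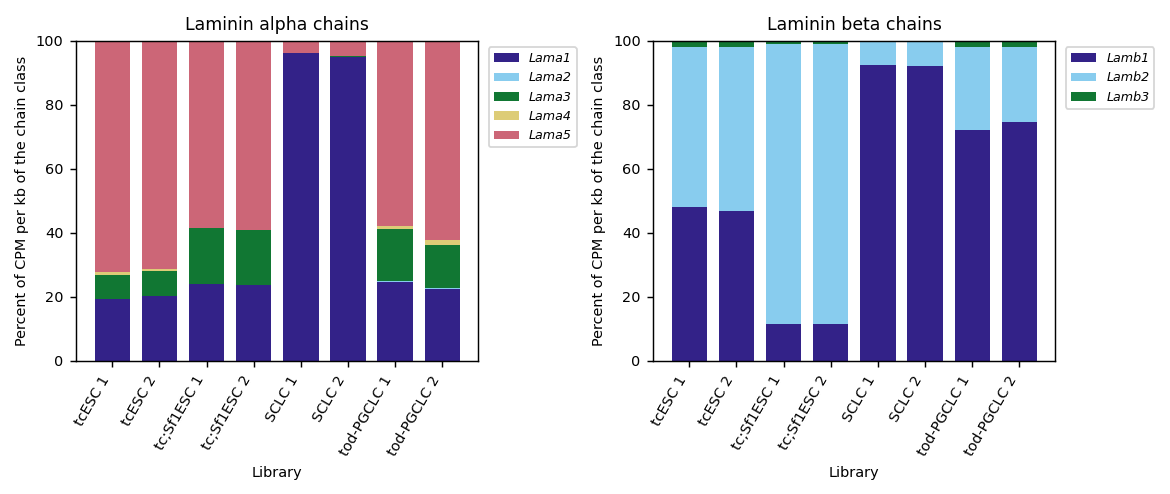
Percent of the CPM per kb of exon held by each laminin alpha chain (left) and beta chain (right) in the 8 libraries, stacked to 100. Lama1 and Lamb1 fill over 90% of the SCLC bars, Lama5 leads in the ESC and tod-PGCLC bars, and Lamb2 fills 87.7% and 87.6% of the tc;Sf1ESC bars.

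Against either ESC group, the linkers changed less in SCLCs than Col4a1, Col4a2, Lama1, Lamb1 and Lamc1 did. Nid1, or nidogen-1, was at 662 and 631 CPM in tcESC, 360.1 and 359 CPM in tc;Sf1ESC, 568 and 494 CPM in SCLCs, and 253 and 160.1 CPM in tod-PGCLCs. Its changes of −0.83 ± 0.18 in the clone against tcESC and of 0.61 ± 0.18 in SCLCs against the clone were under 2-fold, and in tod-PGCLCs it was lower than in tcESC by −1.72 ± 0.18 (adjusted p = 5.81e-05). Nid2, at 424 and 408 CPM in tcESC, 485 and 480.4 CPM in tc;Sf1ESC, 885 and 855 CPM in SCLCs, and 714 and 699 CPM in tod-PGCLCs, was called only in SCLCs against tcESC (1.12 ± 0.06, adjusted p = 4.61e-07). Per length, Nid1 over Nid2 was 1.16 and 1.15 in tcESC, 0.553 and 0.557 in tc;Sf1ESC, 0.478 and 0.431 in SCLCs, and 0.264 and 0.171 in tod-PGCLCs, so that nidogen-2 transcripts outnumbered those of nidogen-1 everywhere but in tcESC.

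Hspg2, which encodes perlecan, was at 655 and 583 CPM in tcESC, 505 and 503 CPM in tc;Sf1ESC, 876 and 1024 CPM in SCLCs, and 356 and 325 CPM in tod-PGCLCs. It differed by less than 2-fold in every comparison fitted with an ESC group, but passed 2-fold in SCLCs against tc;Sf1ESC without the first SCLC library (1.08, adjusted p = 2.81e-07) and in tod-PGCLCs against tcESC without the second tcESC library (−1.07, adjusted p = 0.000509). Agrn, which encodes agrin, a ligand of dystroglycan, was at 358 and 359 CPM in tcESC, 535 and 529 CPM in tc;Sf1ESC, 1419 and 1225 CPM in SCLCs, and 341 and 379 CPM in tod-PGCLCs. It rose in SCLCs by 1.36 ± 0.08 against tc;Sf1ESC (adjusted p = 1.13e-06) and 1.94 ± 0.09 against tcESC (adjusted p = 1.63e-07), and tod-PGCLCs overlapped with tcESC.

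Of the 6 associated genes, 4 rose and 0 fell in SCLCs against tc;Sf1ESC, where 24.2% of all genes were called higher. Sparc, a collagen-binding matricellular protein that chaperones collagen IV, was at 544 and 539 CPM in tcESC, 385 and 385 CPM in tc;Sf1ESC, 7314 and 8020.4 CPM in SCLCs, and 264 and 223 CPM in tod-PGCLCs. Its log2 fold change was 4.36 ± 0.10 against tc;Sf1ESC (adjusted p = 1.04e-08) and 3.88 ± 0.10 against tcESC (adjusted p = 1.36e-08), and it was lower in tod-PGCLCs than in tcESC (−1.23 ± 0.09, adjusted p = 9.71e-06).

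Pxdn encodes peroxidasin, which forms the sulfilimine bonds that cross-link the collagen IV network. It was at 10.2 and 9.19 CPM in tcESC, 3.93 and 2.82 CPM in tc;Sf1ESC, 395 and 431 CPM in SCLCs, and 54.3 and 75.1 CPM in tod-PGCLCs. Pxdn followed the group order of Col4a2 except that the clone was lowest. Its log2 fold change was 6.98 ± 0.21 in SCLCs against tc;Sf1ESC (adjusted p = 2.52e-08), 2.67 ± 0.17 in tod-PGCLCs against tcESC (adjusted p = 4.06e-06), the largest rise of the 31 genes there, and −1.51 ± 0.22 in the clone against tcESC (adjusted p = 0.00105).

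Tinagl1, a laminin-binding matricellular protein, was at 3.70 and 4.66 CPM in tcESC, 2.01 and 0.867 CPM in tc;Sf1ESC, 1158 and 678 CPM in SCLCs, and 13.7 and 11.2 CPM in tod-PGCLCs. The SCLC libraries differed from each other, yet both lay far above the rest (9.38 ± 0.38 against tc;Sf1ESC, adjusted p = 1.17e-07). Its fall in the clone (−1.55 ± 0.46, adjusted p = 0.0316) was lost without the second tc;Sf1ESC library (−1.08, adjusted p = 0.16) or either tcESC library (−1.72 and −1.39). Ntn4, or netrin-4, which binds laminin gamma chains and disrupts laminin networks, was at 0.394 and 0.391 CPM in tcESC, 0.309 and 0.145 CPM in tc;Sf1ESC, 9.58 and 10.5 CPM in SCLCs, and 0.399 and 0.452 CPM in tod-PGCLCs (5.50 ± 0.31 in SCLCs against tc;Sf1ESC, adjusted p = 6.03e-07).

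The fibulins behaved differently. Fbln1 was at 60.2 and 60.7 CPM in tcESC, 128 and 130.4 CPM in tc;Sf1ESC, 227 and 199.8 CPM in SCLCs, and 143 and 127 CPM in tod-PGCLCs, all 3 other groups being above tcESC. It was called higher than in tcESC in the clone (1.11 ± 0.08, adjusted p = 5.35e-05), in SCLCs (1.88 ± 0.09, adjusted p = 1.95e-07) and in tod-PGCLCs (1.09 ± 0.08, adjusted p = 1.14e-05), 3 comparisons that share the tcESC libraries. Fbln2 lay between 3.09 and 13.0 CPM and was not called in SCLCs against either ESC group, although without the first SCLC library it was lower than in tcESC (−1.23, adjusted p = 0.000195).

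The 5 laminin receptor genes, described here without Itgb1, the beta chain that most of them share, together held 0.0439 and 0.0447% of the counts in SCLCs, against 0.0570 and 0.0548% in tcESC, 0.0316 and 0.0311% in tc;Sf1ESC, and 0.0650 and 0.0621% in tod-PGCLCs. Of these 5, SCLCs had 1 called higher than in tc;Sf1ESC and 0 lower (24.2% and 18% over all genes), while the clone had 0 higher and 3 lower than tcESC (6.13% and 5.85%). Itga3, the alpha3 integrin chain, was the one that rose. It was at 23.5 and 22.5 CPM in tcESC, 7.21 and 8.06 CPM in tc;Sf1ESC, 83.3 and 110.2 CPM in SCLCs, and 40.2 and 50.3 CPM in tod-PGCLCs. Its log2 fold change was 3.71 ± 0.17 against tc;Sf1ESC (adjusted p = 2.22e-07) and 2.13 ± 0.16 against tcESC (adjusted p = 2.99e-06).

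Itga6 encodes CD49f, the alpha6 integrin chain. It was at 275 and 265 CPM in tcESC, 120.1 and 116 CPM in tc;Sf1ESC, 162 and 128 CPM in SCLCs, and 227 and 179 CPM in tod-PGCLCs. It was lower in the clone than in tcESC (−1.18 ± 0.13, adjusted p = 0.000303), and no comparison with SCLCs or tod-PGCLCs was called, except in SCLCs against tcESC without the first SCLC library (−1.01, adjusted p = 1.35e-05). The study describes the sequenced tod-PGCLCs in one place as sorted for GFP and CD49f and in another as sorted for GFP and SSEA1, so the tod-PGCLC level of Itga6 may have been set by the sort and is given as a description. Itgb4, the beta4 partner of alpha6 in hemidesmosomes, was at 48.3 and 45.2 CPM in tcESC, 21.6 and 20.9 CPM in tc;Sf1ESC, 9.36 and 17.0 CPM in SCLCs, and 12.1 and 13.0 CPM in tod-PGCLCs. It was highest in tcESC, and was lower by −1.12 ± 0.22 in the clone (adjusted p = 0.00477), by −1.76 ± 0.22 in SCLCs (adjusted p = 0.000104) and by −1.97 ± 0.23 in tod-PGCLCs (adjusted p = 0.000101).

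Itgb1, the beta1 chain shared by most matrix-binding integrins, was at 137 and 136 CPM in tcESC, 273 and 279 CPM in tc;Sf1ESC, 654 and 614 CPM in SCLCs, and 291 and 290.1 CPM in tod-PGCLCs. It rose by 2.28 ± 0.06 in SCLCs against tcESC (adjusted p = 1.67e-08) and by 1.24 ± 0.06 against tc;Sf1ESC (adjusted p = 2.74e-07). Its changes of 1.03 ± 0.06 in the clone (adjusted p = 1.79e-05) and 1.02 ± 0.06 in tod-PGCLCs (adjusted p = 2.71e-06) against tcESC lay at the 2-fold limit, and the former fell under it without the second tc;Sf1ESC or the second tcESC library (0.99 and 1.0) and the latter without any 1 library of tcESC or tc;Sf1ESC (0.96 to 0.98) and, at 0.99 to 1.0, with DESeq2, RLE scaling, either other filter on low counts or only the 4 libraries compared. Neither change was called by glmTreat. Itgb1, Col4a1 and Col4a2 lie on chromosome 8, whose 870 tested genes had a median log2 fold change of 0.48 between the clone and tcESC. Subtracting it leaves 0.56 for Itgb1, −0.41 for Col4a1 and −0.28 for Col4a2. In SCLCs against tcESC the same median was 0.57, which is small beside the changes of Col4a1 and Col4a2 on that chromosome. In tod-PGCLCs against tcESC, the median of chromosome 11, on which Sparc, Itga3 and Itgb4 lie, was 0.52. Against tcESC, the median of chromosome 6, which holds Fbln2, was −0.32 in the clone, −0.31 in SCLCs and −0.29 in tod-PGCLCs. That of the X chromosome, which holds Col4a5 and Col4a6, was 0.21 in SCLCs and 0.25 in tod-PGCLCs. The part of these chromosome-wide shifts in the gene values was not tested further.

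Dag1, which encodes dystroglycan, was at 220.2 and 213 CPM in tcESC, 165 and 164 CPM in tc;Sf1ESC, 183 and 189 CPM in SCLCs, and 364 and 372 CPM in tod-PGCLCs. It was highest in tod-PGCLCs, and its changes were under 2-fold in each comparison fitted, which did not include tod-PGCLCs against tc;Sf1ESC (0.69 ± 0.06 in tod-PGCLCs against tcESC, adjusted p = 1.77e-05). Itga7, a laminin-binding chain of muscle, was at 1.43 to 2.41 CPM in the ESCs and SCLCs and at 6.39 and 7.30 CPM in tod-PGCLCs (1.46 ± 0.21 against tcESC, adjusted p = 0.000368). Itga1, a collagen-binding chain, was at 0.501 to 1.13 CPM in the ESCs and SCLCs and at 2.25 and 2.71 CPM in tod-PGCLCs (1.23 ± 0.29, adjusted p = 0.00527). Itga2, the other collagen-binding chain, had 0 to 3 counts outside SCLCs, where it had 13 and 24, and was not tested.

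Compared directly, SCLCs had 17 of the 31 genes higher and 5 lower than tod-PGCLCs (38% of all genes called, 19.5% higher and 18.5% lower), with a median log2 fold change of 1.23 against −0.01 over all genes. The higher genes included Col4a1 (8.20 ± 0.16, adjusted p = 1.26e-08), Lama1 (6.50 ± 0.10, adjusted p = 7.06e-09), Sparc (5.11 ± 0.11, adjusted p = 1.43e-08), Lamc1 (3.58 ± 0.08, adjusted p = 1.52e-08) and Lamb2 (3.04 ± 0.07, adjusted p = 1.77e-08). The 5 lower genes were Col18a1 (−2.61 ± 0.28, adjusted p = 4.32e-05), Lama3 (−2.50 ± 0.25, adjusted p = 2.59e-05), Itga7 (−1.56 ± 0.21, adjusted p = 0.000191), Fbln2 (−1.24 ± 0.30, adjusted p = 0.00543) and Itga1 (−1.12 ± 0.29, adjusted p = 0.00725). The Fbln2 call was lost without the second SCLC library (−0.77), and the Itga1 call without the first SCLC or the second tod-PGCLC library (both −0.98). Laminin chains in all made up 1.50 and 1.46% of the counts in SCLCs, 0.216 and 0.203% in tcESC, and 0.0896 and 0.0889% in tod-PGCLCs, which were the lowest. Between tod-PGCLCs and tcESC, 6 collagen genes (Col4a1, Col4a2, Col4a5, Col4a6, Col15a1 and Col18a1) were called higher, while Lama1, Lama4, Lama5, Lamb2 and Lamc1 were called lower and no laminin chain was called higher (18.1% of all genes higher and 11.2% lower). Tested against a 2-fold limit (glmTreat), Col4a2 alone of the 6 collagen genes stayed called, with Lama1, Lama5 and Lamc1 of the 5 laminin chains (adjusted p = 0.063 for Col4a1 and 0.072 for Col18a1). Visceral endoderm, peritubular, Sertoli and renal markers were higher in the same comparison, as given above. The calls of Col4a5, Col4a6 and Col15a1 rest on under 5 CPM and were each lost without 1 tcESC library (adjusted p of 0.061 for Col4a5, 0.082 or 0.14 for Col4a6 and 0.055 for Col15a1), while their log2 fold changes of 1.57, 2.47 and 2.27 became 1.33, 2.70 or 2.17, and 2.25. Col4a6 and Col15a1, with at most 6 counts in any ESC library, passed the filter on mean counts only through SCLC and tod-PGCLC libraries. They could therefore hardly have been called lower here. The calls of Lama4 and Lamb2 fell under 2-fold without the first tod-PGCLC library (−0.86 and −0.99).

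Genes that make and remodel the matrix were followed through fixed lists of other genes. Over all genes tested in SCLCs against tc;Sf1ESC, 24.2% were called higher and 18% lower with a median of 0.02, and the counts of each list are to be read against these shares. Of 15 collagen-processing genes, which hydroxylate, fold, export and cross-link collagen, 11 were called higher in SCLCs than in tc;Sf1ESC and 0 lower, with a median log2 fold change of 2.88. Lox, with at most 6 counts in any library outside SCLCs, passed the filter on mean counts only through the SCLC libraries. Loxl2, a lysyl oxidase that acts on collagen IV, was at 0.394 and 0.261 CPM in tcESC, 0.347 and 0.289 CPM in tc;Sf1ESC, 319 and 271 CPM in SCLCs, and 17.0 and 11.3 CPM in tod-PGCLCs (9.89 in SCLCs against tc;Sf1ESC, adjusted p = 1.88e-08). Serpinh1, the collagen chaperone HSP47, was already higher in the clone (162 and 157 CPM) than in tcESC (45.0 and 48.7 CPM; 1.78, adjusted p = 5.12e-05) and reached 2450.1 and 2462 CPM in SCLCs. In tod-PGCLCs 5 of the 15 rose and 1 fell against tcESC (18.1% and 11.2% over all genes), among those that rose the prolyl hydroxylase subunit P4ha1, from 14.2 and 18.1 CPM to 196 and 172 CPM (3.43, adjusted p = 4.14e-07).

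Of 13 matrix proteases and inhibitors, 12 were higher and 0 lower in SCLCs than in tc;Sf1ESC, with a median of 4.17. Timp3, a matrix-bound inhibitor of metalloproteinases, was at 0.386 and 0.217 CPM in tc;Sf1ESC and 334 and 314 CPM in SCLCs (10.11, adjusted p = 5.58e-09). Plat, the tissue plasminogen activator, was at 0.771 and 1.01 CPM in tc;Sf1ESC and 106 and 121 CPM in SCLCs (7.02, adjusted p = 4.95e-07). Inhibitors and proteases thus were called higher side by side.

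Of 12 other tested basement membrane proteins, 9 were higher and 3 lower in SCLCs than in tc;Sf1ESC, with a median of 2.29. Egflam, or pikachurin, a dystroglycan ligand, rose from 0.193 and 0.0723 CPM to 81.8 and 109 CPM (9.51, adjusted p = 9.52e-07). Ntn1, or netrin-1, fell from 203 and 206 CPM to 25.7 and 22.2 CPM (−3.05, adjusted p = 1.78e-08), opposite to Ntn4.

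Of 13 other matrix receptors, 5 were higher and 3 lower in the same comparison (24.2% and 18% over all genes), with a median of 0.12. Itga5, the alpha5 chain of the fibronectin receptor, was at 66.2 and 64.5 CPM in tcESC, 6.06 and 6.03 CPM in tc;Sf1ESC, and 259 and 292 CPM in SCLCs, so it both fell in the clone (−3.42, adjusted p = 6.26e-07) and rose in SCLCs (5.56 against tc;Sf1ESC, adjusted p = 4.4e-09). Bcam, the Lutheran receptor for laminin alpha5, fell from 37.6 and 38.8 CPM in tc;Sf1ESC to 8.11 and 7.46 CPM in SCLCs (−2.25, adjusted p = 7.32e-08).

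Inside the cell, 7 of 14 tested integrin adaptors were higher and 3 lower in SCLCs than in tc;Sf1ESC (24.2% and 18% over all genes), with a median of 0.81. Parva, or alpha-parvin, rose from 2.55 and 2.53 CPM to 100.4 and 104 CPM (5.38, adjusted p = 8.18e-09), and Zyx, or zyxin, from 9.60 and 8.31 CPM to 202 and 204 CPM (4.55, adjusted p = 9.56e-09). Of the 9 tested genes of the dystrophin complex, which ties dystroglycan to the cytoskeleton, 1 was higher and 4 were lower. Sgce, or epsilon-sarcoglycan, was at 8.26 and 10.1 CPM in tcESC, 0.463 and 0.434 CPM in tc;Sf1ESC and 70.3 and 60.9 CPM in SCLCs (7.23 against tc;Sf1ESC, adjusted p = 6.44e-08), and Dmd, encoding dystrophin, was at 104 and 104 CPM in tc;Sf1ESC and 25.4 and 27.3 CPM in SCLCs (−1.94, adjusted p = 1.87e-07). Of 12 enzymes that glycosylate dystroglycan for laminin binding, 3 were higher and 0 lower, and the share that was higher was close to the 24.2% over all genes.

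**Figure D5:**
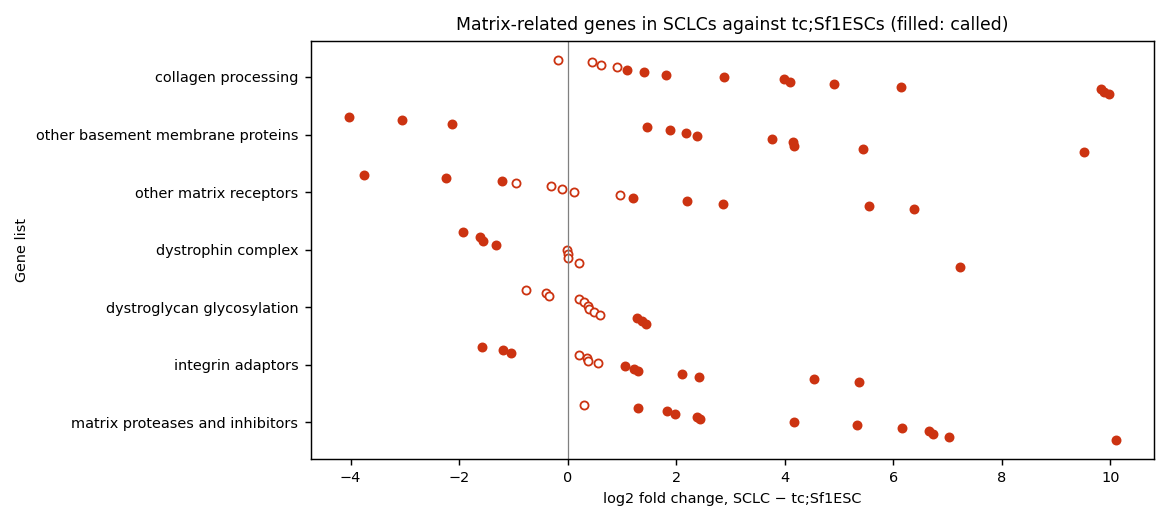
Log2 fold change in SCLCs against tc;Sf1ESC of the tested genes of 7 lists, 1 point per gene, filled where called. Collagen-processing genes and matrix proteases and inhibitors lie almost wholly to the right of 0 and the dystrophin complex mostly at or left of it; Lox and Itgb8 had no count in tc;Sf1ESC, so the position of their points depends on the prior count of the fit.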

How the data were processed

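RNA from 8 mouse cell samples in 4 groups of 2 was sequenced. The deposited values are raw counts per Ensembl gene, made by the authors with HTSeq after trimming with Trim Galore and alignment with STAR 2.4.0 to GRCm38, per the labels; the strand and overlap settings are not given in the sources used here, so antisense and overlapping genes are uncertain. Rows that name no gene were left out (6.45 to 8.32% of all read records fell outside features and 20.5 to 27.5% were not unique). The 36 genes and all lists were chosen with earlier results of these data known. Symbols and exon lengths came from GENCODE M21.

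Genes with a mean above 10 counts (16707) were fitted in 1 model over the 8 libraries and 4 groups with edgeR 4.0.16 (R 4.3.3, TMM scaling, quasi-likelihood F-test, Benjamini-Hochberg adjustment over all genes). SE is the absolute log2 fold change, taken before shrinkage by the prior count of the fit, divided by the square root of F. CPM was computed as counts scaled to the library total, and per kb of the union of exons. Named genes were all 36 members, Nr5a1, marker genes whose values stand beside a result and, from each pathway list, at most the 2 called genes with the largest rise and the 2 with the largest fall among those with a mean of at least 1 CPM. Alternatives were DESeq2 1.42.0, RLE and unscaled library totals, other filters, glmTreat, subsets of libraries, a replicate block, transcript length, and each library left out. Depth was 25411033 to 30680191 counts, and a count of 0 allows up to 3 counts (0.0978 to 0.118 CPM), for counting error only.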

Additional observations from a re-analysis of the deposited data

How the results depend on the processing

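No difference of a tested member that was called in the joint fit, or under an alternative, changed sign between them. Some uncalled differences did change sign when libraries were left out, among them Col4a1 in tc;Sf1ESC against tcESC (−0.04 to 0.12), Col4a6 in SCLC against tcESC (−0.83 to 1.75), Fbln2 in SCLC against tc;Sf1ESC (−0.80 to 0.31) and Itgb4 in SCLC against tod-PGCLC (−0.29 to 0.58). Requiring a change over 2-fold by test (glmTreat) left 1 member higher and 3 lower in tc;Sf1ESC against tcESC, 1 lower in SCLC against tc;Sf1ESC, 3 higher in tod-PGCLC against tcESC and 3 lower in SCLC against tod-PGCLC. The opposite directions lost less. Only Col4a6 and Col15a1 of the 17 higher in SCLC against tc;Sf1ESC lost their call. So did Lama4 and Lamb2 of the 8 lower in tod-PGCLC against tcESC, and Lama4 and Itga3 of the 17 higher in SCLC against tod-PGCLC. In SCLC against tcESC, Col4a5, Col15a1 and Col18a1 lost it. With each library left out, the members called higher and lower ranged over 2 to 4 and 6 to 8 (tc;Sf1ESC against tcESC), 15 to 17 and 2 to 3 (SCLC against tc;Sf1ESC), 16 to 18 and 3 to 6 (SCLC against tcESC), 9 to 13 and 6 to 9 (tod-PGCLC against tcESC), and 16 to 17 and 4 to 6 (SCLC against tod-PGCLC). Of 1235 values so recomputed 37 lost and 9 gained their call, and of 1477 under the other alternatives 42 lost and 2 gained it. Scaling by library totals alone moved the median of all genes in SCLC against tod-PGCLC from −0.01 to −0.15, and brought the members lower in tod-PGCLC against tcESC from 8 to 6.

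Same-numbered libraries did not deviate together (correlations of −0.0259 to 0.0624 between groups), so the numbers do not pair samples. With the replicate number as a block, 17 members were higher and 2 lower in SCLC against tc;Sf1ESC, 18 and 4 against tcESC, 4 and 8 in tc;Sf1ESC and 12 and 8 in tod-PGCLC against tcESC, as without it. The 5 members under the filter of 10 mean counts were left out of the joint fit by that filter, not by the design. With every gene of at least 1 count fitted, 19 members were higher and 2 lower in SCLC against tc;Sf1ESC, and 21 and 4 against tcESC.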

Other observations

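The marker lists of other cell types, checked beside the basement membrane genes, gave these values. The 5 peritubular and smooth muscle markers summed to 51.3 and 38.5 CPM in the SCLC libraries and to 45.9 and 50.2 CPM in the tod-PGCLC libraries, against at most 3.0 CPM in the ESCs. Of the 7 endothelial markers, the sum was 81.6 and 133 CPM in SCLCs and at most 52.3 CPM elsewhere, and Cdh5, the endothelial cadherin, was at 29.6 and 70.2 CPM in SCLCs. The list did not move as one, with 3 of 6 tested genes higher and 1 lower than in tc;Sf1ESC, and 2 higher and 1 lower than in tcESC. Tek, the angiopoietin receptor, was at 5.58 and 3.99 CPM in SCLCs against 25.8 to 28.7 CPM in the ESCs. The 6 trophectoderm markers summed to 40.0 and 82.0 CPM in SCLCs, 38.2 to 42.3 CPM in tod-PGCLCs, 37.9 to 38.5 CPM in tcESC and 13.0 to 14.8 CPM in tc;Sf1ESC. The 8 podocyte and renal markers summed to 94.2 CPM in the first and 91.2 CPM in the second tod-PGCLC library, against at most 20.8 CPM in the other groups. Most of it was Nphs1, which encodes nephrin (85.3 and 68.7 CPM), followed by the kidney and gonad precursor gene Lhx1 (4.90 and 16.8 CPM, against at most 0.962 CPM elsewhere). The 7 primordial germ cell markers summed to 1008 and 992 CPM in tod-PGCLCs against at most 549 CPM elsewhere, with 4 called higher and 0 lower than in tcESC. Nanos3 was highest in tc;Sf1ESC (9.10 and 9.07 CPM), and the levels of Kit overlapped between tc;Sf1ESC and SCLCs, both above tod-PGCLCs (262 and 258 CPM). Ilk, which encodes the integrin-linked kinase that binds the parvins, was listed with 0 to 2 counts in every library and was not tested. Since the overlap and strand settings of the counting are not given in the sources used here, these counts do not show that the gene was silent, and it was chosen after its values were seen.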
